A study of Mus musculus with 4 samples.

Results

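The genes described here encode the core of signalling through immunoreceptor tyrosine-based activation motifs (ITAMs) in macrophages: the ITAM adaptor gene Tyrobp, the Src family kinase genes Src, Lyn and Fgr, the kinase genes Syk and Btk, the scaffold adaptor gene Lcp2, and Plcg2 and Vav1, which encode effector enzymes. They were chosen by name, with earlier results of these data known. All 9 were found among the 22554 genes named once in each of the 2 deposited tables. The libraries come from RAW264.7 cells, a transformed mouse macrophage line. In 2 libraries (mock) they were kept alone, and in 2 (coculture) they were grown with CT26, which is a mouse colon carcinoma line. RAW264.7 cells were cultured in DMEM and CT26 cells in RPMI1640, per the labels' protocols. How long the coculture lasted, its medium and how the macrophages were recovered were not stated in the labels. The 2 libraries numbered 1 make up pair 1 and those numbered 2 make up pair 2, and each pair was deposited in a separate table.

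As background, many activating receptors of macrophages have no signalling domain of their own and pair with Tyrobp or Fcer1g, small membrane proteins that carry an ITAM. Src family kinases phosphorylate the tyrosines of the motif, Syk docks there, and Syk then acts with the scaffold Lcp2 and the Tec family kinase Btk to activate phospholipase C gamma (Plcg2) and the guanine nucleotide exchange factor Vav1. In macrophages this route serves phagocytosis, adhesion through integrins and the recognition of damaged cells.

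Lcp2 and Src stood at least 2-fold higher in coculture in both pairs, Lyn stood higher by less, and Tyrobp, Btk, Plcg2 and Vav1 stood lower in both pairs by at most 0.57 on the log2 scale. Fgr and Syk each stood higher in 1 pair alone, Fgr in pair 1 and Syk in pair 2. For Tyrobp the difference in pair 1 was only -0.02. Among all genes tested, 42.2% were lower in both pairs. None of the 9 passed the test over all genes. Levels are in FPKM (fragments per kilobase, scaled to library size). Each difference is the log2(FPKM + 1) value in coculture less that in mock, a scale that understates the change of genes near or below 1 FPKM. Differences were tested in limma blocked on the pair, and the figure after ± is the moderated SE from limma (n = 2 pairs). The threshold for a call was a Benjamini-Hochberg adjusted p of 0.05. Where levels are written as one against another, the mock library comes first and the coculture library second. The labels do not say whether replicates came from separate cultures, so the p-values reflect the spread among these libraries alone, and that spread may be technical.

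The depth, estimated from the smallest steps between FPKM values, was 12200000 to 16200000 reads, and each library had 9927 to 10084 genes at 1 FPKM or more. In limma 13 of the 10202 genes tested rose and 0 fell; at an unadjusted p under 0.05, 537 were higher and 964 were lower. The median difference over all genes tested was -0.07. All 12 macrophage identity genes were expressed, and they summed to 6142 to 9889 FPKM in the mocks and 10339 to 13284 FPKM in the cocultures. Of 20 epithelial and mesenchymal genes used as markers of CT26 cells, 18 stayed below 0.2 FPKM in every library and 8 were at 0 in both cocultures, Epcam and Krt18 among them. Together they summed to 1.71 to 2.79 FPKM in the mocks and 1.57 to 2.37 FPKM in the cocultures, most of it Tagln. Lymphoid markers summed to 1.33 to 2.47 FPKM and granulocyte markers to 1.71 to 6.05 FPKM. In bulk RNA, fewer cells that express a gene and less RNA per cell cannot be told apart.

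All 9 genes passed the filter of at least 1 FPKM in 2 libraries, Src only through the 2 cocultures in which it was high, so that its entry into the test already required a difference. The counts that follow describe the 9 genes and were not tested as a set. Because the 9 were chosen with earlier results of these data known, a share above that of all genes tested is no evidence of enrichment. None was called by limma in either direction; of all genes tested, 0.127% were called higher and 0% were called lower. At an unadjusted p under 0.05, 3 were higher (Lcp2, Lyn and Src) and 2 lower (Plcg2 and Vav1), against 5.26% and 9.45% of all genes tested. A difference of at least 2-fold upward in both pairs was found for 2 of the 9, against 1.02% of all genes tested, and the same 2 were the ones at least 1.5-fold higher (background 2.4%). None was at least 1.5-fold lower in both pairs (background 2.17%). For 7 of the 9 the sign was the same in both pairs, against 63.6% of all genes tested. Of the 9, 4 were lower in both pairs and 3 higher in both, against 42.2% and 21.5% of all genes tested. The share of lower genes was thus near that of all genes tested. FPKM in both cocultures lay above both mocks for 3 genes (background 10.3%) and below both for 4 (background 21.5%), a comparison that also sets values of one table against the other.

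**Figure D1:**
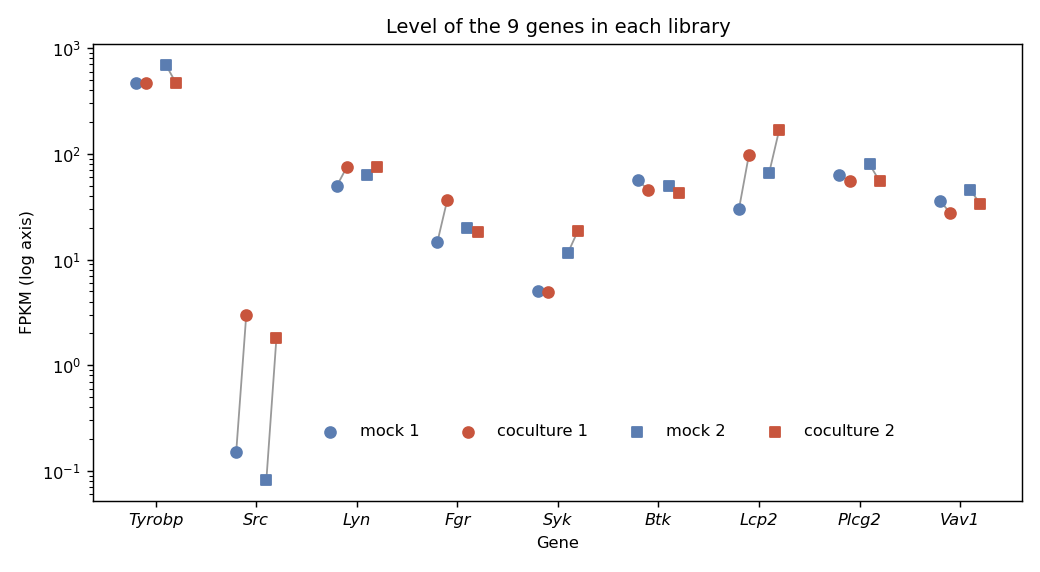
FPKM (log axis) of the 9 genes in the 4 libraries; blue marks mock, red marks coculture, circles are pair 1 and squares pair 2, and a grey line joins the libraries of a pair. Tyrobp was the most abundant in every library and Src the least, and Src shows the widest gap within each pair, 0.151 against 2.996 FPKM and 0.082 against 1.81 FPKM.

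The stretches before the start sites of Src, Lcp2 and Vav1 are shown because Src and Lcp2 had the largest higher values and Vav1 the largest lower value among genes of the same sign in both pairs. They come from RefSeq windows on GRCm38.p6, plus strand, 5′ to 3′; the window is the 250 bases before the start, printed up to the first annotated exon base, so that no annotated exon is shown. Of the 9 genes, 7 had a window in the table. Capitals mark a match to the NF-kappaB motif or to the PU.1 core GAGGAA. Windows are chr2:157424043-157424115 for Src, chr11:34046678-34046919 for Lcp2 and chr17:57278850-57279099 for Vav1.
Src: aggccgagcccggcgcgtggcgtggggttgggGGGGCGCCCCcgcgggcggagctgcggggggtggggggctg
Lcp2: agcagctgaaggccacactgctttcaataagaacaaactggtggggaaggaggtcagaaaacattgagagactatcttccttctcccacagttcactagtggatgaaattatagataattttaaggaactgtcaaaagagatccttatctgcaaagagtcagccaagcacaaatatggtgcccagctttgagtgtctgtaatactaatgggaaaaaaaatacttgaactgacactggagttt
Vav1: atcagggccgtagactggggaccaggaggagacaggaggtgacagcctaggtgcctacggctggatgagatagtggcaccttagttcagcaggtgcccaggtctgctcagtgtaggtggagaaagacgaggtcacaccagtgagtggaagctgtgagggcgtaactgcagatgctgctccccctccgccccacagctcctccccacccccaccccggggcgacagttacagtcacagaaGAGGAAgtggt

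The motifs searched on both strands were GAGGAA for PU.1, the sequence TGANTCA for AP-1, and the NF-kappaB motif. Any base was allowed at the middle positions of the NF-kappaB motif. The Src window held 1 NF-kappaB match, 218 to 209 bases before the start, which read as a match on both strands. It also held 1 GAGGAA match on the minus strand, 108 to 103 bases before the start. That match lay past the printed stretch, after the first annotated exon base of Src. The Vav1 window held 1 GAGGAA match, 11 to 6 bases before the start. The Lcp2 window held none of the 3. Among 32851 mouse windows of this length, 7.25% held an NF-kappaB match, 6.75% an AP-1 match and 23.3% GAGGAA. These matches describe letters, not binding.

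Because FPKM is a level per length, the genes can be ordered within a library. Tyrobp came first and Src last in all 4 libraries. Lcp2 was the one whose place moved most: it ranked 6 in mock 1 and 3 in mock 2, and 2 in both cocultures. Among all 22554 genes it ranked 2886 and 1135 in mock and 749 and 319 in coculture. Between these ends, Plcg2, Lyn, Btk and Vav1 stood within 27.5 to 79.2 FPKM in every library, and the order among neighbours changed between libraries. Syk stood at 4.94 to 18.8 FPKM, below those 4 in every library. Fgr stood at 14.5 to 36.8 FPKM, below those 4 except in coculture 1, where it was above Vav1.

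Tyrobp encodes the ITAM adaptor also known as DAP12, partner of Trem2 and other receptors. It stood at 470 FPKM in mock 1 against 462 FPKM in coculture 1, and at 696 FPKM in mock 2 against 469 FPKM in coculture 2. Mock 2 was thus the high library and the other three lay within 462 to 470 FPKM. The difference was -0.30 ± 0.18 (limma adjusted p = 0.51), with -0.02 in pair 1 and -0.57 in pair 2, and the pair 1 value turned to 0.08 after median centring. Fcer1g, the other abundant ITAM adaptor, stood at 256 against 258 FPKM in the first pair and 365 against 335 FPKM in the second, and is named here after its values were seen. Hcst, an adaptor that signals through another motif, stood at 8.14 to 10.02 FPKM in all libraries. Of the 9 genes listed as ITAM adaptors only these 3 were expressed enough to test, and 0 passed. The other 6 encode lymphocyte receptor subunits and did not exceed 0.098 FPKM.

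Src encodes the founding member of its kinase family and is required by osteoclasts, relatives of macrophages, to resorb bone. It stood at 0.151 FPKM in mock 1 against 2.996 FPKM in coculture 1, and at 0.082 FPKM in mock 2 against 1.81 FPKM in coculture 2. Both mocks were near 0 and both cocultures were higher, with no overlap. Src passed the filter only through these cocultures, so among the genes tested this separation was already required and is no support in itself. In estimated reads this is 10 and 213 in pair 1 and 6 and 97 in pair 2. The FPKM ratio was 19.9 in pair 1 (exact Clopper-Pearson 95% interval 10.7 to 42.6) and 22.1 in pair 2 (9.23 to 58.1). These intervals cover counting error only, and since the labels name no molecular identifiers, reads need not be independent molecules. The log2(FPKM + 1) difference was 1.59 ± 0.23 (limma adjusted p = 0.125), with 1.80 in pair 1 and 1.38 in pair 2. With a pseudocount of 0.1 it was 3.51. Src had the largest ratio of the 9 genes and the lowest level. Of the markers chosen for CT26 cells, Epcam and Krt18 were at 0 in both cocultures beside these Src values. In coculture 1 and 2, Krt8 stood at 0.0683 and 0.045 FPKM, Col1a1 at 0 and 0.028 FPKM, Sparc at 0.134 and 0 FPKM and Cav1 at 0.156 and 0 FPKM. In mock 1 and 2, Krt8 stood at 0.0361 and 0 FPKM and Col1a1 at 0.0415 and 0 FPKM. Sparc stood there at 0.198 and 0 FPKM and Cav1 at 0.282 and 0 FPKM. Tpm2, of the same list, was at 0 in both mocks and at 0.176 and 0.074 FPKM in coculture 1 and 2. Thy1 went the other way, at 0.0751 and 0.073 FPKM in mock 1 and 2 and 0 in both cocultures. Tpm2 and Thy1 are named here after their values were seen. How strongly CT26 cells express Src or these markers was not measured.

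Lyn, the most abundant of the 3 Src family kinase genes chosen, encodes a kinase that acts in both activating and inhibitory signalling. It stood at 49.6 FPKM in mock 1 against 74.8 FPKM in coculture 1, and at 62.7 FPKM in mock 2 against 75.1 FPKM in coculture 2. Both cocultures lay near 75 FPKM, above both mocks. The difference was 0.42 ± 0.13 (limma adjusted p = 0.297), with 0.58 in pair 1 and 0.26 in pair 2. Fgr, a myeloid Src family kinase gene, stood at 14.5 FPKM in mock 1 against 36.8 FPKM in coculture 1, but at 19.7 FPKM in mock 2 against 18.4 FPKM in coculture 2. Coculture 1 alone was high, and the other three libraries lay within 14.5 to 19.7 FPKM. Its difference was 0.60 ± 0.35 (limma adjusted p = 0.492), with 1.29 in pair 1 and -0.09 in pair 2.

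Among relatives in the Src family, Fyn stood at 14.2 against 14.7 FPKM in the first pair and 21.1 against 14.8 FPKM in the second, so mock 2 was the high library. Its difference was -0.22 ± 0.18 (limma adjusted p = 0.608). Lck stood at 1.24 to 2.38 FPKM, Frk at most at 0.607 FPKM and Yes1 at most at 0.0267 FPKM, and Blk was listed at 0.

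Syk encodes the kinase that docks on phosphorylated ITAMs. It stood at 5.03 FPKM in mock 1 against 4.94 FPKM in coculture 1, and at 11.6 FPKM in mock 2 against 18.8 FPKM in coculture 2. Both libraries of pair 2 lay above both libraries of pair 1, so the gap between the tables was larger than the one between the groups. The difference was 0.31 ± 0.22 (limma adjusted p = 0.545), with -0.02 in pair 1 and 0.65 in pair 2, and the pair 1 value turned to 0.08 after median centring and 0.14 after quantile normalization. Its relative Zap70, a lymphocyte kinase gene, did not exceed 0.023 FPKM.

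Btk encodes the Tec family kinase that activates phospholipase C gamma. It stood at 56.0 FPKM in mock 1 against 45.1 FPKM in coculture 1, and at 49.1 FPKM in mock 2 against 43.0 FPKM in coculture 2. Both cocultures were the lower of their pair, and the 2 groups did not overlap. The difference was -0.25 ± 0.11 (limma adjusted p = 0.403). Its relative Tec went both ways, 14.9 against 23.3 FPKM in the first pair and 22.9 against 18.6 FPKM in the second, and is named here after its values were seen. Txk, a less abundant member of the family, stood at 2.47 against 4.45 FPKM in the first pair and 1.17 against 4.05 FPKM in the second, a difference of 0.93 ± 0.23 (limma adjusted p = 0.23). Of the 7 Syk and Tec family genes, 4 were tested and 0 passed.

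Lcp2 encodes the scaffold known as SLP-76, which brings Vav1, phospholipase C gamma and Tec family kinases together. It stood at 29.9 FPKM in mock 1 against 98.4 FPKM in coculture 1, and at 65.6 FPKM in mock 2 against 167 FPKM in coculture 2. Both cocultures lay above both mocks, although mock 2 was itself over mock 1. The ratio was 3.30 in pair 1 and 2.55 in pair 2. The difference was 1.51 ± 0.14 (limma adjusted p = 0.0623), or 1.69 and 1.34 in the pairs, which is the lowest p of the 9 genes and 99.0 on the percentile scale of all differences. After median centring of each library it passed (1.58, limma adjusted p = 0.022), as it did after quantile normalization (1.51, limma adjusted p = 0.0436). The estimated reads behind it were 2044 to 9110 per library. The gene 4930469K13Rik, whose exons overlap those of Lcp2 in the GENCODE mouse annotation, stood at 0.363 against 0.469 FPKM in pair 2 and was not analysed here in pair 1. Whether reads were counted by strand is not stated, so reads shared by overlapping genes cannot be told apart; Lyn likewise overlaps Gm26857, which was not analysed here. The window before the Lcp2 start, printed above, held none of the motifs searched.

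Among 16 scaffold adaptors, 11 were tested, and Lcp2 was the only one at least 1.5-fold higher in both pairs, against 2.4% of all genes tested. The median of the scaffold list was -0.01 in pair 1 against 0.12 in pair 2. Grb2, a general adaptor between tyrosine kinases and Ras, stood at 66.4 against 58.0 FPKM in the first pair and 69.9 against 62.0 FPKM in the second. Sh3bp2, an adaptor of Syk signalling, stood at 30.1 against 25.7 FPKM in pair 1 and 30.0 against 20.9 FPKM in pair 2. Skap2, an adaptor of integrin signalling, differed by -0.26 ± 0.12 and Nck1, which links to the actin skeleton, by 0.25 ± 0.15 (limma adjusted p = 0.409 and 0.491). Blnk, the scaffold related to Lcp2, stood at 2.70 against 1.70 FPKM in the first pair and 9.67 against 12.2 FPKM in the second, and is named here after its values were seen.

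Plcg2 encodes the phospholipase that releases calcium and diacylglycerol signals. It stood at 63.6 FPKM in mock 1 against 54.9 FPKM in coculture 1, and at 79.2 FPKM in mock 2 against 54.96 FPKM in coculture 2. The cocultures were level with each other and below both mocks. The difference was -0.36 ± 0.13 (limma adjusted p = 0.33), with -0.21 in pair 1 and -0.52 in pair 2. Vav1 encodes a guanine nucleotide exchange factor of blood cells that acts on the actin skeleton. It stood at 36.1 FPKM in mock 1 against 27.5 FPKM in coculture 1, and at 45.5 FPKM in mock 2 against 33.7 FPKM in coculture 2. Its difference was nearly the same in both pairs, -0.38 and -0.42, with a mean of -0.40 ± 0.11 (limma adjusted p = 0.266). Its levels in coculture were 0.761 and 0.740 times those in mock, and no coculture reached a mock.

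**Figure D2:**
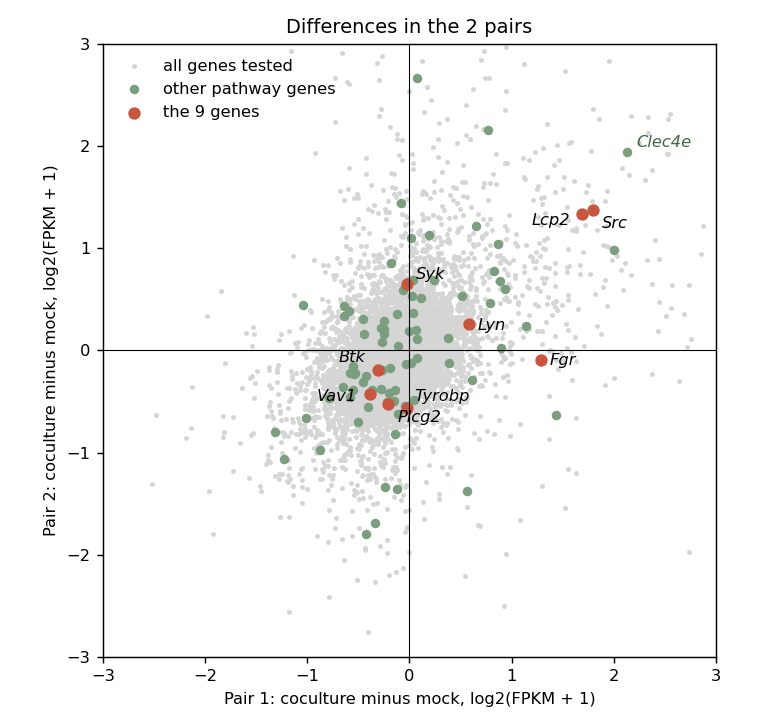
Difference in log2(FPKM + 1), coculture less mock, in pair 1 (x axis) and pair 2 (y axis) for the 9 genes (red), 80 other pathway genes (green) and all genes tested (grey); 51 genes beyond 3 on either axis are not drawn. Lcp2 and Src lie together at the upper right, Fgr near the x axis at 1.29 and Syk near the y axis at 0.65. Tyrobp, Btk, Plcg2 and Vav1 lie below 0 on both axes, Tyrobp at only -0.02 in pair 1.

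The genes whose 2 within-pair differences lay nearest to those of Src, by Euclidean distance among all genes tested, were Slc31a2 (a copper transporter relative, distance 0.09), Lcp2 (0.12) and Cish (a feedback inhibitor of cytokine signalling, 0.15). Cish, like Src, was near 0 in mock, at 0.0301 and 0.042 FPKM, and stood at 2.88 and 1.87 FPKM in coculture. Slc31a2 stood at 5.82 against 22.5 FPKM in the first pair and 5.08 against 15.8 FPKM in the second. Nearest to Vav1, at distances of 0.0045 to 0.0073, were Gtse1, Cdc42se1 and Pip4p2. On the log2(FPKM + 1) scale of these distances, changes of genes near 0 are understated. The FPKM ratios in pair 1 and pair 2 were 19.9 and 22.1 for Src and 95.6 and 44.6 for Cish. They were 3.30 and 2.55 for Lcp2 and 3.86 and 3.11 for Slc31a2. Like Src, Cish passed the filter only through the cocultures. These distances rest on 2 pairs and are given as a description.

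Beyond the 9 genes, the pathway lists held 108 others, of which 80 were tested. In limma 1 rose, Clec4e, and 0 fell, against 0.127% and 0% of all genes tested; at an unadjusted p under 0.05 there were 12 higher and 19 lower genes, against 5.26% and 9.45%. Of the 80, 23 were higher in both pairs and 32 lower in both, against 21.5% and 42.2% of all genes tested. Their median difference was -0.08, close to the -0.07 of all genes tested.

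The list of receptors that signal through ITAM adaptors or carry a motif of their own had 16 tested genes of 22. It also took in Fcgr2b, an inhibitory Fc receptor named here after its values were seen. The list median was 0.04 in pair 1 against 0.48 in pair 2. Clec4e, the receptor Mincle, which signals through Fcer1g, stood at 96.0 against 423 FPKM in the first pair and 25.0 against 98.9 FPKM in the second. It rose by 2.03 ± 0.12 (limma adjusted p = 0.0394). That call was lost with no filter on low values, without the pair block and without trended prior variance, while the difference itself stayed at 2.03. Fits without a single library also had no pair block, and they made no call. Its neighbour in the same lectin group, Clec4d, stood at 212 against 362 FPKM in pair 1 and 61.0 against 276 FPKM in pair 2 (limma adjusted p = 0.228). Itgb2, the beta chain of the leukocyte integrins, stood at 69.9 against 100.3 FPKM in pair 1 and 102 against 149 FPKM in pair 2. Fcgr3, an activating Fc receptor that uses Fcer1g, stood at 7.80 against 5.19 FPKM in pair 1 and 16.3 against 9.67 FPKM in pair 2. Trem2, a partner of Tyrobp named here after its values were seen, stood at 228 against 170 FPKM in the first pair and 202 against 57.5 FPKM in the second. Trem2 and Tyrobp both had their larger gap in pair 2, and Trem2 did not pass (limma adjusted p = 0.29).

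The list of effector enzymes downstream of Syk also took in proteins that are not enzymes, such as Nfatc2. It had 23 tested genes of 25. In both pairs 12 were lower and 4 higher, or 52.2% lower against 42.2% of all genes tested. The list median was -0.27 in pair 1 against -0.22 in pair 2, and 0 passed in limma, with 10 lower and 1 higher genes at an unadjusted p under 0.05 (9.45% and 5.26% of all genes tested). Plcg2 and Vav1 belong to this list. Rasgrp3, a Ras exchange factor that responds to diacylglycerol, stood at 67.3 against 26.5 FPKM in pair 1 and 95.9 against 54.8 FPKM in pair 2, a difference of -1.05 ± 0.16 (limma adjusted p = 0.136). Pik3r1, the regulatory subunit of phosphoinositide 3-kinase, differed by -0.84 ± 0.17, and Nfatc2, a calcium-dependent transcription factor, by -0.52 ± 0.15. Ptk2b, a calcium-responsive adhesion kinase, stood at 47.3 against 35.4 FPKM in pair 1 and 51.5 against 34.9 FPKM in pair 2.

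Genes listed as inhibitors of the pathway numbered 29, of which 26 were tested. The list takes in the phosphatases Ptprc, Ptprj and Ptpn11, which can also promote the pathway, so its counts are not of inhibitors alone. In both pairs Ptprc was lower and Ptprj and Ptpn11 were higher, and these are named here after their values were seen. Of the 26, 14 were lower and 7 higher in both pairs, or 53.8% and 26.9% against 42.2% and 21.5% of all genes tested. In limma 0 were called, and 8 lower and 5 higher genes had an unadjusted p under 0.05 (9.45% and 5.26% of all genes tested). The list median was -0.25 in pair 1 against -0.19 in pair 2. Csk, the kinase that holds Src family kinases inactive, stood at 58.3 against 44.9 FPKM in pair 1 and 64.4 against 49.0 FPKM in pair 2, and is named here after its values were seen. Pag1, its membrane anchor, stood at 6.37 against 3.02 FPKM in pair 1 and 9.45 against 4.32 FPKM in pair 2, a difference of -0.93 ± 0.16 (limma adjusted p = 0.159). Sirpa, the inhibitory receptor for CD47, stood at 94.1 against 39.7 FPKM in pair 1 and 142 against 67.4 FPKM in pair 2 (limma adjusted p = 0.0707). On the other side, Ptpn22, a phosphatase that acts on Src family kinases, stood at 50.8 against 93.5 FPKM in pair 1 and 37.9 against 78.8 FPKM in pair 2 (limma adjusted p = 0.0994). Lilrb4a, an inhibitory receptor gene, stood at 127 against 513 FPKM in pair 1 and 137 against 271 FPKM in pair 2. After median centring Ptpn22 (1.02, limma adjusted p = 0.0396) and Sirpa (-1.08, limma adjusted p = 0.035) also passed.

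**Figure D3:**
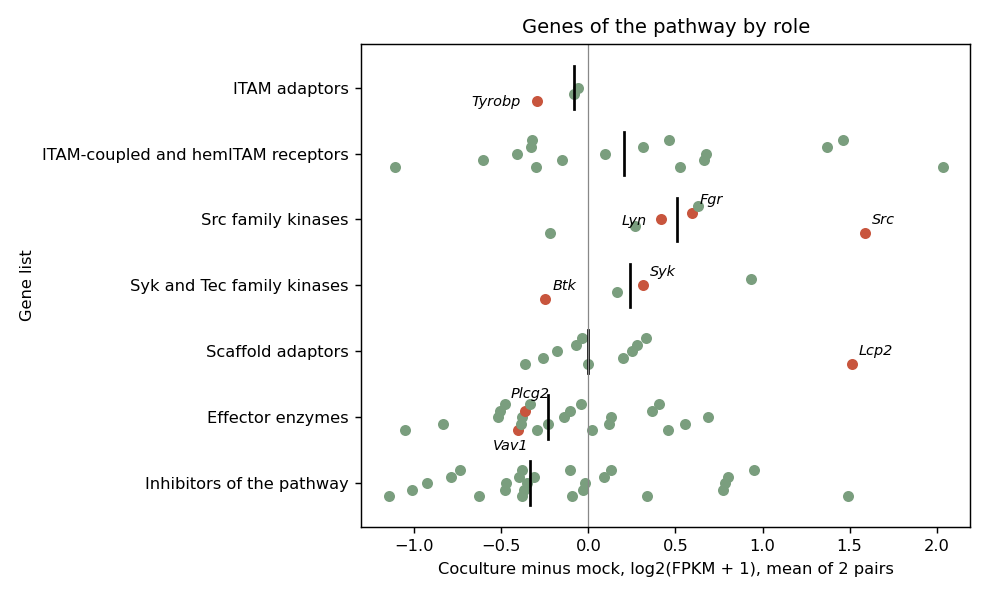
Difference (coculture minus mock, log2(FPKM + 1), mean of 2 pairs) of each tested gene of the 7 pathway lists; red points are the 9 genes, green points the others, and black lines mark list medians. Lcp2 stands alone at 1.51 among scaffold adaptors and Src at 1.59 among Src family kinases. Plcg2 and Vav1 lie within the spread of the list labelled effector enzymes.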

How the data were processed

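The authors deposited FPKM in 2 tables, one per pair. Trim Galore, featureCounts and Subread are named per the submitters' processing notes, as is the human build hg38, although the symbols are mouse; versions, annotation and strand setting were not found in the sources. Unnamed rows (23) and repeated names (106) of the first table were left out. The 10202 genes that reached 1 FPKM in 2 or more of the 4 libraries were transformed to log2(FPKM + 1). They were fitted in limma 3.58.1 (R 4.3.3, pair as a block, trended prior variance, 1 residual degree of freedom, prior 3.43, two-sided). The code was tested on simulated data with equal noise and no pair effect, which does not check the calls made here. The block keeps comparisons within a table; deviations of paired libraries from group means correlated at 0.76 across genes. Reads were estimated from FPKM steps and GENCODE exon lengths. The members, lists and tests were chosen with earlier results of these data known. Named genes were the 9, every pathway gene called, up to 4 per list of one sign in both pairs whose weaker pair showed the largest difference, Src family genes (1 of that list is not reported here), and nearest neighbours; any other is marked in the text. Alternatives were 13 changes of pseudocount, filter, scaling, block, variance prior and single libraries.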

Additional observations from a re-analysis of the deposited data

How the results depend on the processing

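Of the 9 genes, 8 kept the direction of their mean difference under every alternative run, and Syk did in 11 of 13; without mock 1 or without coculture 2, unblocked, Syk turned to -0.22 and -0.55, and over all single libraries left out it ranged from -0.55 to 1.18. Src was not tested at 5 FPKM or more. Among the 9, the number called was 1 (Lcp2) after median centring and 1 after quantile normalization, and 0 under the other alternatives. Lcp2 ranged from 1.46 to 1.58, or 0.957 to 2.07 without single libraries, and Src from 1.51 to 3.51, or 1.33 to 1.84. Genes called higher numbered 22 with a pseudocount of 0.1, 25 (and 1 lower) at 5 FPKM or more, 85 (18 lower) after median centring, 43 (3 lower) after quantile normalization, 1 with no replicate block, 1 without trended variance and 0 with no filter (634 at an unadjusted p under 0.05). Without any single library, unblocked, they numbered 0 (141 to 275 at an unadjusted p under 0.05). Pathway genes called numbered 4 after median centring, 2 after quantile normalization, and 0 with no filter, no block, no trended variance (34, 11 and 27 at an unadjusted p under 0.05) or any single library left out (4 to 13). The cause was not tested. The fit has 1 residual degree of freedom, and low read numbers limit Src in mock.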
